A study of Mus musculus with 11 samples.

Results

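The genes described here are 9 complement components and regulators, C3, C4b, C7, C2, Cfb, Cfd, Serping1, Cd55 and Masp1, taken by symbol from an expression table of 47643 mouse gene symbols. All 9 were listed in the table. Of these, 8 were among the 11979 genes that reached 1 RPKM (reads scaled to transcript length and to mapped reads) in at least 2 libraries and were tested, whereas Cfd stayed below that level. Each of the 11 libraries held poly-A RNA of fibroblasts from the skin of female mice aged 9 to 12 weeks, on a mixed background of 50% CD-1 and 50% C57BL/6. The cells were live, CD140a-positive and CD45-negative, with CD11b, F4/80 and, per the labels, CD3 as further negative markers, and each library pooled RNA of 3 mice. Fibroblasts came either from non-wounded back skin (NS), from which the fat below had been taken off, or from full-thickness excisional wounds 5 days after injury (5dw). Mice were wild-type (WT) or carried INHBA under the keratin 14 promoter (Act) to express the transgene in keratinocytes. Keratinocyte transcripts were also present in the sorted material, as given below. The 4 groups were WT NS, Act NS and WT 5dw with 3 libraries each and Act 5dw with 2 libraries, those numbered 1 and 3.

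Complement is a cascade of proteins that tags and lyses targets and calls in immune cells. The classical pathway starts with C1q, C1r and C1s, which cleave C4 and C2. The lectin pathway uses MASP proteases for the same step. The alternative pathway runs on C3 itself, with factor B (Cfb) as the protease and factor D (Cfd, adipsin) as the enzyme that activates factor B. All of them cleave C3, after which C5 to C9 can form a membrane pore. Host cells hold the cascade in check with soluble inhibitors, such as C1 inhibitor (Serping1), and with membrane proteins such as decay-accelerating factor (Cd55). Liver is the main source of plasma complement, and fibroblasts are known to make several components locally.

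Of the 9 genes, 4 lie on chromosome 17 of GRCm38, all on the minus strand. C4b (chr17:34728380-34743882), Cfb (chr17:34856374-34862518) and C2 (chr17:34862604-34898265) lie within 169.9 kb, and the Cfb and C2 gene models are 85 bases apart. C3 lies at chr17:57203970-57228136. The others are Cd55 (chr1:130439027-130462744, minus strand), Serping1 (chr2:84765387-84775444, minus strand), Cfd (chr10:79890853-79892655, plus strand), C7 (chr15:4988762-5063740, minus strand) and Masp1 (chr16:23449417-23520815, minus strand). Masp1 overlaps Rtp4 on the other strand. Several members share sequence with neighbours, which bears on where reads were placed. The share of 31-base words found in other genes was 48.3% for C4b, all of it with C4a, and 75.5% for Cfb and 44.4% for C2, mostly with the read-through gene Gm20547. Cd55 shared 11.2% with Cd55b.

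The RefSeq promoter table (GRCm38.p6) held 4 of the 9 members, C3, C7, Cd55 and Cfd. The 250 bases before the start were searched on both strands for C/EBP (TTGCNNAA), GAS (TTCNNNGAA), ISRE (GAAANNGAA) and NF-kappaB words. C3 held a C/EBP word between -45 and -38 from the start, a word present in 9.56% of 32851 promoter windows. C7 held a GAS word between -164 and -156, present in 7.02% of windows. Neither the NF-kappaB word (7.25% of windows) nor the ISRE word (7.13%) was found in the 4 members. The upstream windows of C3 and C7 are shown because these genes had large decreases in wounds and a word match, and capitals mark the matched word. Both are printed 5′ to 3′ on the minus strand, C3 from chr17:57228137-57228386 and C7 from chr15:5063774-5064023. A match is a description of letters only.
C3: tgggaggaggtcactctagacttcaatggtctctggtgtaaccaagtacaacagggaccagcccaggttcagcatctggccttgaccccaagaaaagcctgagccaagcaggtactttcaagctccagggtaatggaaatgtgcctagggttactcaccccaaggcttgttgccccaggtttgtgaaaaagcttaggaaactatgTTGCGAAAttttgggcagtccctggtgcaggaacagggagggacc
C7: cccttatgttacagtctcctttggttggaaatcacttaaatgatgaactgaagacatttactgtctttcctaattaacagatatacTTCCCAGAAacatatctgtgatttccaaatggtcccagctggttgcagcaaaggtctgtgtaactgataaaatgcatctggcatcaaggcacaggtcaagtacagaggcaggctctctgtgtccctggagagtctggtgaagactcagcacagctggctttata

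Depth recovered from the values was 18649322 to 39702133 mapped reads per library, and the WT 5dw libraries were the deepest (at least 38740398 reads). More RNA went into 5dw than into NS libraries, so input and tissue cannot be told apart. Pdgfra, the gene of CD140a, was at 49.8 to 65.3 RPKM in NS and 29.6 to 37.3 RPKM in 5dw without overlap (log2FC -0.63 in WT, limma adjusted p = 0.0025, and -0.80 in Act, adjusted p = 0.00182), and Ptprc, the gene of CD45, was at 0.050 RPKM at most. Cd3e, the gene of a CD3 chain, was at 2.94 to 33.9 RPKM in NS and 55.5 to 105 RPKM in 5dw. Cd3d was at 0.64 and Cd3g at 0.59 RPKM at most. These are RNA levels, and surface CD3, the negative marker of the labels, was not measured here. Inhba was at 3.40 to 6.93 RPKM in WT NS and at 36.3 to 91.1 RPKM in Act NS (log2FC 3.30, SE 0.36, limma adjusted p = 0.0128). Whether these reads came from the mouse gene or the transgene was not tested. Keratinocyte markers were present in all libraries. The sum of 14 such genes was 1347 to 2467 RPKM in WT NS, 1350 to 5043 in Act NS, 135 to 1141 in WT 5dw and 291 to 345 in Act 5dw, with no gene at 0 in all libraries, and 13 of the 14 fell in WT wounds, where 48.8% of all tested genes did. The part of Pdgfra, Cd3e and these markers in the results below was not tested. In these bulk samples, fewer cells of a type and less RNA per cell cannot be told apart.

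In unwounded skin, 3 members were among the most abundant transcripts of the fibroblasts. By mean RPKM over the 6 NS libraries, Serping1 ranked 29, C3 ranked 37 and C4b ranked 124 among all genes. In WT NS, Serping1 (979 ± 91.3 RPKM, SD, n = 3) and C3 (967 ± 65.6) did not differ beyond their spread and stood above C4b (320 ± 23.5). Cd55 (76.4 ± 9.61), Cfb (66.8 ± 4.68) and C2 (50.7 ± 8.04) followed, and the ranges of Cd55 and Cfb overlapped. C7 (20.9 ± 4.47) and Masp1 (7.24 ± 2.81) were lower, and Cfd was at 0.17 ± 0.15. C3, C4b and Serping1 together held 90.0% to 91.6% of the members' summed RPKM in NS libraries and 80.4% to 84.7% in 5dw libraries, with no overlap.

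Wounding changed most of these genes, in opposite directions. In WT wounds against WT NS, 6 of the 8 tested members fell (C3, C7, C2, Serping1, Cd55 and Masp1) and Cfb rose, while C4b did not pass the test. In Act wounds against Act NS, 7 of 8 fell and Cfb rose. Decreases were common in the whole transcriptome: by limma at an adjusted p below 0.05, 48.8% of all tested genes were lower and 9.45% higher in WT wounds, and 36.5% were lower and 9.04% higher in Act wounds. The median log2FC of the members was -0.86 in WT and -0.90 in Act, against -0.40 and -0.31 over all genes. After scaling each library by the median ratio over genes, which moves the median gene to about 0, the members called were C3, C7, Cd55 and Masp1 (lower) and Cfb (higher) in WT, and C3, C7 and Masp1 (lower) and Cfb (higher) in Act. All tested genes then split into 22.8% lower and 21.6% higher in WT and 21.4% lower and 19.4% higher in Act. Taking all 5dw against all NS libraries, 5 members (C3, C7, C2, Serping1 and Masp1) lay below without overlap, as did 38.9% of all tested genes. Only Cfb among the 9 lay above without overlap, as did 8.45% of all tested genes.

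**Figure D1:**
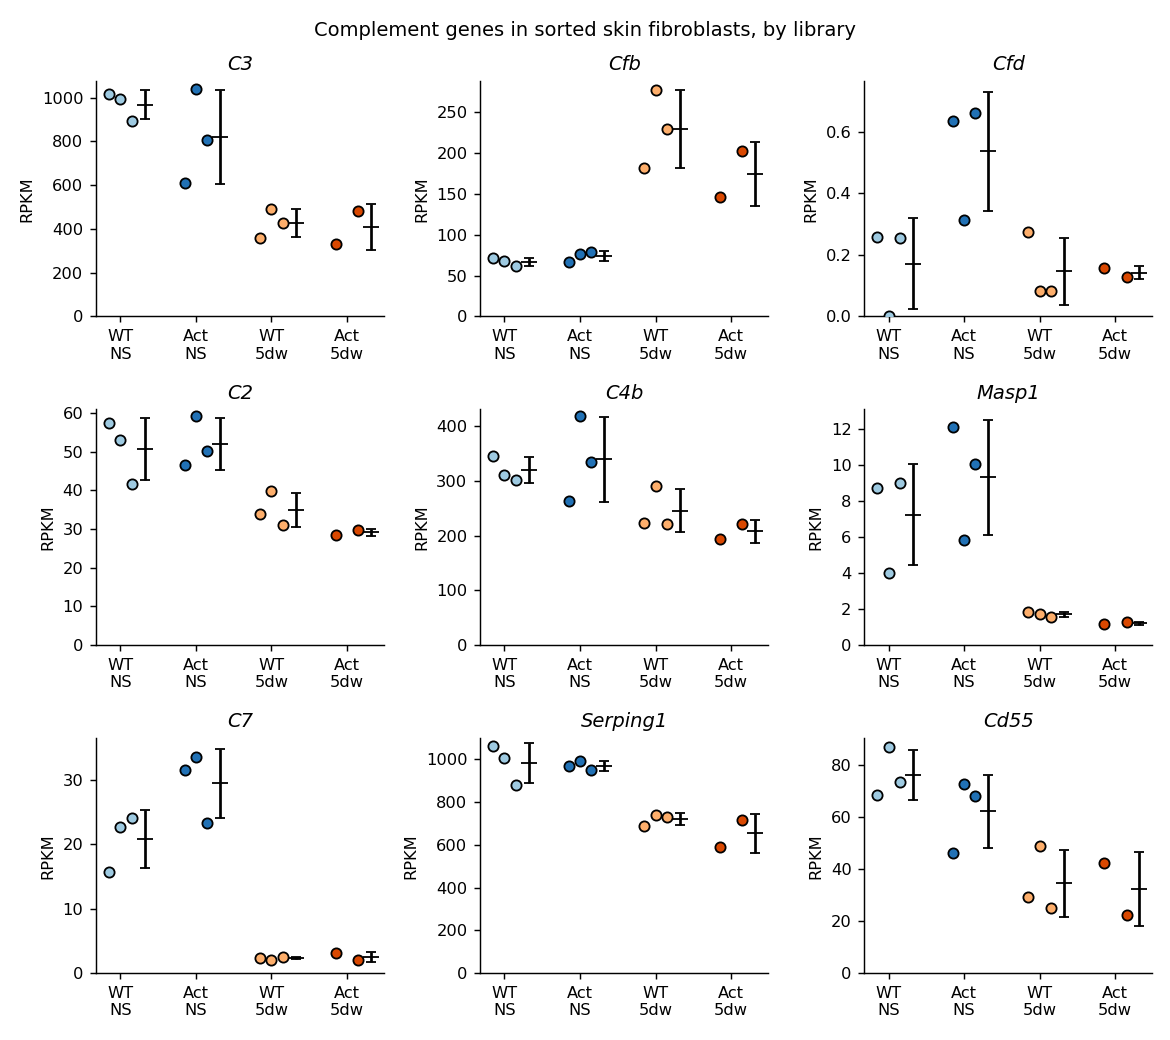
RPKM of the 9 complement genes (y axis, linear, from 0) in each library of the 4 groups (points), with the group mean and SD beside them (n = 3, and n = 2 for Act 5dw). Cfb is higher in every 5dw library (146 to 277 RPKM) than in any NS library (61.8 to 78.8), whereas C7 falls from 15.8 to 33.5 RPKM in NS to 2.05 to 3.15 in 5dw, and Cfd is below 1 RPKM everywhere.

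Cfb, the protease subunit of the alternative pathway convertase, was the member that rose. Its RPKM was 71.0, 67.7 and 61.8 in WT NS and 66.9, 75.7 and 78.8 in Act NS. In wounds it was 182, 277 and 228 in WT 5dw, with 146 and 201 in Act 5dw. All wound libraries were thus above all unwounded ones, and the rank of Cfb among all genes went from 556 to 189. The log2FC was 1.75 in WT (SE 0.18, limma adjusted p = 2.76e-05), a 3.36-fold higher level on the RPKM + 0.5 scale, and 1.21 in Act (SE 0.20, adjusted p = 0.000779), 2.32-fold. After median-ratio scaling the values were 2.19 and 1.55, and Cfb passed the test under all 20 alternative settings in each genotype. Gm20547, which shares most of the Cfb sequence, was at 0.17 to 1.39 RPKM.

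C3, the protein on which all pathways meet, moved the other way. It stood at 1017, 992 and 893 RPKM in WT NS and at 609.9, 1039 and 805 in Act NS. In wounds it stood at 361, 489.9 and 427 in WT 5dw, with 333 and 481 in Act 5dw. The lowest unwounded library, Act NS 1, remained above the highest wound library. C3 fell by 1.19 on the log2 scale in WT (SE 0.21, limma adjusted p = 0.000939), a 2.28-fold lower level, and had a log2FC of -0.996 in Act (SE 0.24, adjusted p = 0.00655). With median-ratio scaling the log2FC was -0.75 in WT (adjusted p = 0.0125) and -0.66 in Act (adjusted p = 0.0407), and without Act 5dw 1 the Act value was -0.73 (adjusted p = 0.0773). Where an Act 5dw library is left out, here and below, the lone library of that group is assumed to vary like those of the other groups. Even in wounds C3 remained abundant, at rank 89 of all genes.

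Ratios between genes within a library do not depend on how libraries are scaled. The Cfb to C3 ratio of RPKM was 0.068 to 0.110 in NS and 0.419 to 0.565 in 5dw. The Cfb to C2 ratio, which sets the factor B gene against its neighbour and counterpart in the classical pathway, was 1.24 to 1.57 in NS and 5.13 to 7.37 in 5dw. The C4b to C3 ratio was 0.313 to 0.432 in NS and 0.461 to 0.620 in 5dw. These 3 ranges did not overlap between NS and 5dw. Others did, such as Cfb to Cfi (55.1 to 135 and 55.0 to 107), C4b to C4a (97.2 to 190.5 and 89.8 to 172) and Serping1 to C1s1 (2.19 to 3.37 and 1.77 to 3.18).

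**Figure D2:**
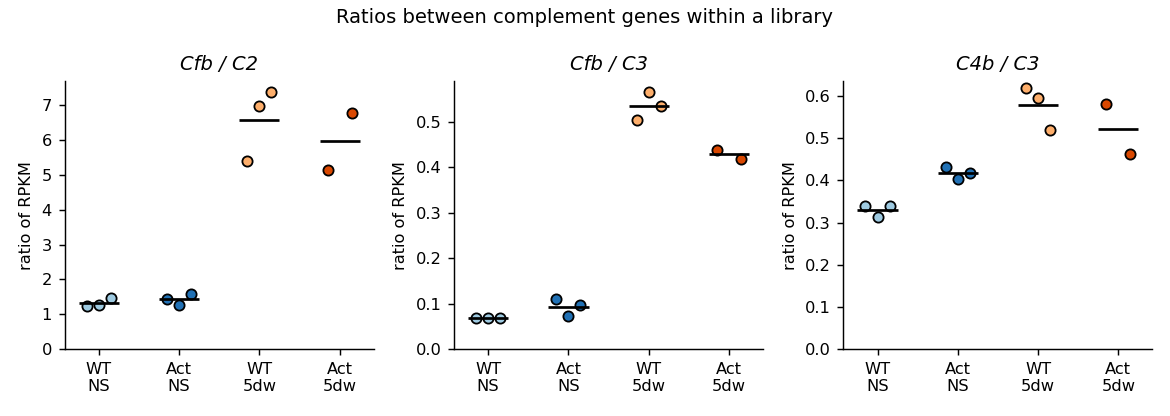
Ratio of RPKM between pairs of complement genes within each library (y axis, linear, from 0) in the 4 groups, with points for libraries and lines for group means. Cfb to C2 is 1.24 to 1.57 in NS and 5.13 to 7.37 in 5dw, Cfb to C3 is 0.068 to 0.110 and 0.419 to 0.565, and C4b to C3 is 0.313 to 0.432 and 0.461 to 0.620.

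Cfd, the factor D gene and a known product of fat cells, was hardly detected. It was at 0.26, 0 and 0.26 RPKM in WT NS, 0.63, 0.31 and 0.66 in Act NS, 0.27, 0.084 and 0.084 in WT 5dw, with 0.16 and 0.13 in Act 5dw. These levels rest on 0 to 14 reads per library. All Act NS libraries lay above all WT NS libraries, with 7 to 14 against 0 to 7 reads. In a limma fit with no filter on low values (26465 genes), Cfd had a log2FC of 0.64 in Act NS against WT NS (95% CI 0.19 to 1.08, adjusted p = 0.673), -0.67 in Act wounds against Act NS (adjusted p = 0.0574) and -0.04 in WT wounds against WT NS (adjusted p = 0.942), and passed in no comparison. Of the adipocyte markers, Adipoq was at 0.41 to 1.27 RPKM, Fabp4 at 3.75 to 12.1 and Lpl at 39.5 to 119. Cidea was at 0.75 to 9.02 RPKM in NS and at 0.044 at most in 5dw, and Plin1 was at 0.092 at most and listed at 0 in both Act 5dw libraries. The summed level of the 10 adipocyte genes was 94.8 to 117 in WT NS, 72.3 to 133 in Act NS, 52.7 to 69.8 in WT 5dw and 45.9 to 61.2 in Act 5dw, and 17.8 at most without Lpl, and 3 of the 5 tested fell in WT wounds, where 48.8% of all tested genes did.

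Of the classical pathway members, C2, the protease cleaved by C1s, was at 57.3, 53.0 and 41.8 RPKM in WT NS and 46.5, 59.3 and 50.2 in Act NS. It was at 33.8, 39.7 and 31.002 in WT 5dw, with 28.5 and 29.8 in Act 5dw. Every wound library lay below every unwounded one. C2 fell by 0.53 on the log2 scale in WT (SE 0.16, limma adjusted p = 0.0132) and had a log2FC of -0.82 in Act (SE 0.17, adjusted p = 0.00331). In WT this is close to the change of the median gene. The log2FC after median-ratio scaling was -0.10 in WT (adjusted p = 0.651) and -0.48 in Act (adjusted p = 0.0509), and without WT 5dw 3 the WT value was -0.45 (adjusted p = 0.0599).

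C4b, the mouse C4 that forms the convertase with C2, was at 346, 311 and 302 RPKM in WT NS and at 264, 419 and 335 in Act NS. It was at 224, 292 and 222 in WT 5dw, with 193 and 222 in Act 5dw. WT 5dw 2 overlapped with Act NS 1, so NS and 5dw libraries were not separated. The log2FC was -0.39 in WT (SE 0.18, limma adjusted p = 0.0883), which did not pass the test, and -0.69 in Act (SE 0.20, adjusted p = 0.0187). The WT call appeared without Act NS 1 (adjusted p = 0.0445) or WT 5dw 2 (adjusted p = 0.0499). The Act call was lost with median-ratio scaling (-0.34, adjusted p = 0.160) and without Act NS 2 (adjusted p = 0.0585), Act 5dw 1 (adjusted p = 0.119) or Act 5dw 3 (adjusted p = 0.0524), and in a fit of the 2 groups alone (adjusted p = 0.0645). C4a, the closely related copy, was at 1.12 to 3.56 RPKM, and the sources used here do not say how reads shared by the copies were placed.

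Masp1, a protease of the lectin pathway, fell strongly. Its RPKM was 8.73, 3.99 and 8.99 in WT NS and 12.1, 5.81 and 10.0 in Act NS. In 5dw it was 1.83, 1.72 and 1.54 in WT and 1.15 and 1.26 in Act. NS libraries varied among themselves but all lay above the 5dw libraries. Masp1 fell by 1.74 on the log2 scale in WT (SE 0.30, limma adjusted p = 0.000681), 3.34-fold, and had a log2FC of -2.47 in Act (SE 0.33, adjusted p = 0.000251), 5.52-fold, and it passed the test under all 20 alternatives in each genotype. Rtp4, which overlaps it on the other strand, was at 7.86 to 30.7 RPKM, and the sources used here do not say whether counting used strand.

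C7, a component of the membrane attack complex, had the largest decrease of the 8 tested members. It was at 15.8, 22.8 and 24.1 RPKM in WT NS and at 31.5, 33.5 and 23.3 in Act NS. In wounds it was at 2.40, 2.15 and 2.54 RPKM in WT 5dw, with 3.15 and 2.05 in Act 5dw. The 5dw libraries formed a narrow range far below NS. C7 fell by 2.88 on the log2 scale in WT (SE 0.20, limma adjusted p = 2.57e-06), 7.36-fold, and had a log2FC of -3.28 in Act (SE 0.22, adjusted p = 4.14e-06), 9.71-fold. The decrease remained past the threshold under all 20 alternatives in each genotype, and the rank of C7 went from 1457 to 7241.

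Serping1, the C1 inhibitor that blocks C1r, C1s and MASP proteases, remained among the most abundant transcripts. It was at 1058, 1001 and 879 RPKM in WT NS and at 965, 988 and 945 in Act NS. In 5dw it was at 686, 739 and 727 in WT and at 587 and 716 in Act. All wound libraries were below all NS libraries. The log2FC was -0.45 in WT (SE 0.13, limma adjusted p = 0.0148) and -0.57 in Act (SE 0.15, adjusted p = 0.00952). Against the median gene there was no such decrease: with median-ratio scaling the values were -0.01 in WT (adjusted p = 0.979) and -0.23 in Act (adjusted p = 0.302). The WT call was also lost without WT 5dw 1 (adjusted p = 0.0565) or with no filter on low values (adjusted p = 0.102), and the Act call without Act 5dw 1 (adjusted p = 0.0975), with no filter (adjusted p = 0.0769) or in a fit of the 2 groups alone (adjusted p = 0.0566).

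Cd55, the membrane protein that speeds the decay of C3 convertases, was at 68.6, 87.1 and 73.5 RPKM in WT NS and at 46.3, 72.7 and 68.2 in Act NS. It was at 29.5, 49.2 and 25.3 in WT 5dw, with 42.7 and 22.4 in Act 5dw. WT 5dw 2 lay above Act NS 1, so the ranges touched. Cd55 fell by 1.18 on the log2 scale in WT (SE 0.29, limma adjusted p = 0.0054) and had a log2FC of -0.97 in Act (SE 0.32, adjusted p = 0.0303). With median-ratio scaling it was -0.75 in WT (adjusted p = 0.0493) and -0.64 in Act (adjusted p = 0.125). In Act the call was lost without Act NS 2 (adjusted p = 0.0877), Act NS 3 (adjusted p = 0.076) or Act 5dw 3 (-0.52, adjusted p = 0.305), with no filter (adjusted p = 0.0677) and in a fit of the 2 groups alone (adjusted p = 0.0516), and with limma-voom the calls were lost in WT (-0.74, adjusted p = 0.0532) and in Act (-0.62, adjusted p = 0.134).

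**Figure D3:**
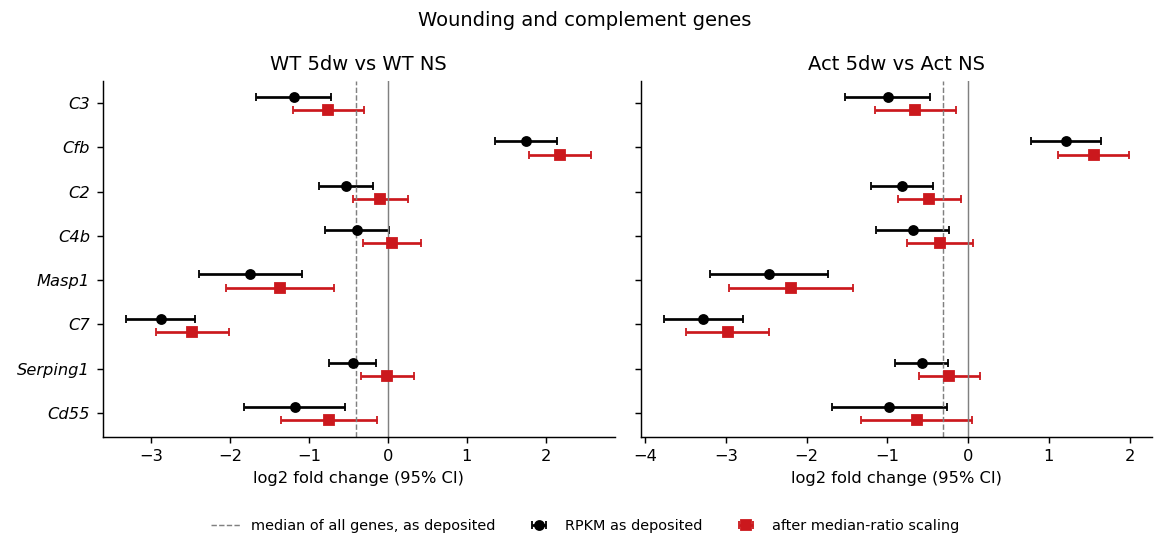
Log2 fold change of the 8 tested members (x axis, with 95% CI from limma) in WT and Act wounds against unwounded skin, for RPKM as deposited (black circles) and after median-ratio scaling (red squares), with the median of all genes as a dashed line. Cfb lies above 0 (1.75 and 1.21 as deposited) and C7, Masp1 and C3 lie below 0 with both scalings, whereas Serping1 in WT goes from -0.45 to -0.01.

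The other genes of the cascade were read from lists of 60 complement genes by role, of which 57 were in the table and 23, members included, were tested. C6 entered the test only through NS libraries, where it is high, so it is left out of the counts. Of the 14 other genes, 1 rose and 5 fell in WT wounds (7.14% and 35.7%, against 9.45% and 48.8% of all tested genes), and 1 rose and 6 fell in Act wounds (7.14% and 42.9%, against 9.04% and 36.5%). Their median log2FC was -0.26 and -0.58, against -0.40 and -0.31 over all genes. After median-ratio scaling 3 were higher and 2 lower in WT (21.4% and 14.3%, against 21.6% and 22.8% of all genes), and 2 were higher and 2 lower in Act (14.3% each, against 19.4% and 21.4%). Apart from the members, Cfi, the protease that inactivates C3b and C4b, was the gene that rose in WT wounds. Its RPKM was 0.86, 0.87 and 1.12 in WT NS and 2.50, 2.84 and 2.60 in WT 5dw (log2FC 1.12, SE 0.18, limma adjusted p = 0.000438), and the log2FC in Act was 1.00 (adjusted p = 0.00228). C6, the partner of C7 in the membrane attack complex, was at 0.74, 1.29 and 1.88 RPKM in WT NS and at 0.20, 0.20 and 0.19 in WT 5dw. These values are a description with no test. Hc, the gene of C5, was below the filter and lay the other way, at 0.15, 0.12 and 0.56 RPKM in WT NS and 0.87, 0.82 and 1.14 in WT 5dw, and with no filter its limma log2FC was 0.93 in WT (adjusted p = 0.00786) and 0.76 in Act (adjusted p = 0.0408).

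Of the membrane regulators, 3 of the 4 tested fell in both genotypes, namely Cd55, Cd59a, which blocks pore formation (log2FC -0.91 in WT, limma adjusted p = 0.000648), and Cr1l, the mouse Crry cofactor for C3b cleavage (-0.71, adjusted p = 0.000304), while Cd55b did not pass. Of all tested genes 48.8% fell in WT and 36.5% in Act, so a count over 4 genes says little about the group. After median-ratio scaling these 3 passed in WT and Cr1l alone in Act, where 22.8% and 21.4% of all genes were lower. In WT wounds Vtn, the gene of vitronectin (-0.92, adjusted p = 0.00161), Cfp, the properdin that stabilises the alternative convertase (-0.65, adjusted p = 0.00478), and C1s1 (-0.58, adjusted p = 0.0208) fell too, and the calls of Vtn, Cfp and C1s1 were lost with median-ratio scaling, under which C1rb and Colec12 were called higher. C1s1 did not pass in Act (-0.25, adjusted p = 0.347). C1ra, the classical protease upstream of C1s, was at 247 to 279 RPKM in WT NS and 190.4 to 241 in WT 5dw (log2FC -0.32, adjusted p = 0.0858), and it fell in Act wounds (log2FC -0.51, adjusted p = 0.0272), as did C4a (log2FC -0.64, adjusted p = 0.0404), and both calls were lost with median-ratio scaling (-0.17, adjusted p = 0.386, and -0.38, adjusted p = 0.240). The C1q genes were at 0.80 RPKM at most, and Mbl1 was listed at 0 in every library.

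**Figure D4:**
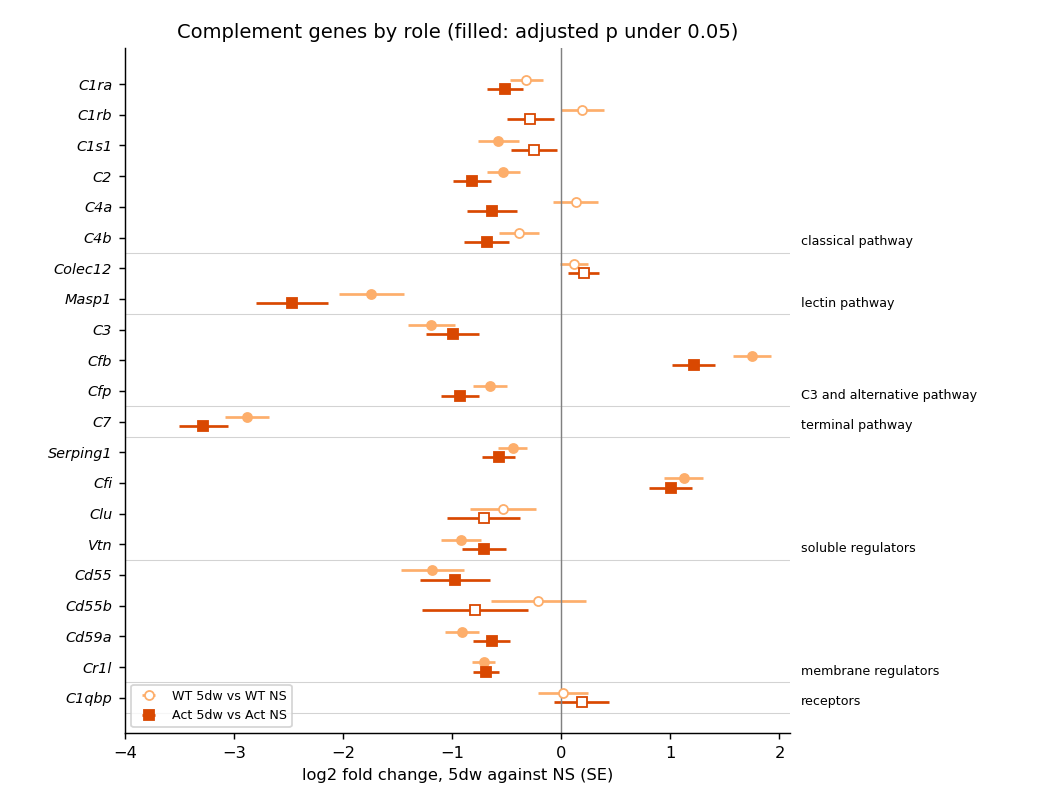
Log2 fold change with SE (x axis) of the tested complement genes on the y axis, grouped by role, in WT (light circles) and Act (dark squares) wounds against unwounded skin, with filled symbols for limma adjusted p below 0.05. Cfb and Cfi lie to the right of 0 and C7 and Masp1 farthest to the left.

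The effect of the activin transgene was compared in each tissue. None of the 8 members passed the test in Act NS against WT NS, where 0.0167% of all tested genes did (limma, 2 genes, with 824 at an unadjusted p below 0.05). None did in Act 5dw against WT 5dw either, where 0.0334% did (4 genes, with 386 at an unadjusted p below 0.05). For the interaction of wounding and genotype 0% of genes passed (0 genes, with 400 at an unadjusted p below 0.05). At an unadjusted p below 0.05, limma on RPKM as deposited found 1 member in NS and 0 in 5dw and for the interaction. With median-ratio scaling, Cfb was below that level for the interaction (limma unadjusted p = 0.0383). No member was called in these comparisons under any alternative setting, limma-voom included.

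The intervals show what size of difference these libraries allow. In unwounded skin, C7 was 20.9 ± 4.47 RPKM in WT and 29.4 ± 5.39 in Act (SD, n = 3 each), a log2FC of 0.49 (95% CI 0.05 to 0.93, limma adjusted p = 0.688), and the groups overlapped. C6 was at 0.74 to 1.88 RPKM in WT and 1.60 to 3.89 in Act (log2FC 0.95, 95% CI 0.31 to 1.59, adjusted p = 0.679). Vtn differed by -0.43 (95% CI -0.83 to -0.03, adjusted p = 0.701). C3 differed by -0.27 (95% CI -0.75 to 0.20) and Serping1 by -0.02 (95% CI -0.31 to 0.28). In wounds, Cfb was 229 ± 47.5 RPKM in WT (n = 3) and 174 ± 39.2 in Act (n = 2), a log2FC of -0.39 (95% CI -0.83 to 0.04, adjusted p = 1). C3 in wounds differed by -0.08 (95% CI -0.61 to 0.45). Outside the members, C4a in wounds differed by -0.76, with an interval that left out 0 (95% CI -1.26 to -0.26, adjusted p = 0.866). For the difference between the wound responses, the log2 value was -0.54 for Cfb (95% CI -1.12 to 0.05), -0.40 for C7 (95% CI -1.06 to 0.26) and -0.72 for Masp1 (95% CI -1.70 to 0.26), each with an adjusted p of 0.999. With median-ratio scaling the Cfb value was -0.63, and its interval left out 0 (95% CI -1.22 to -0.04, adjusted p = 0.999). The scaled intervals of C7 (95% CI -1.19 to 0.19) and Masp1 (95% CI -1.86 to 0.19) held 0. The intervals were thus wide, and they do not show that the genotypes act alike.

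**Figure D5:**
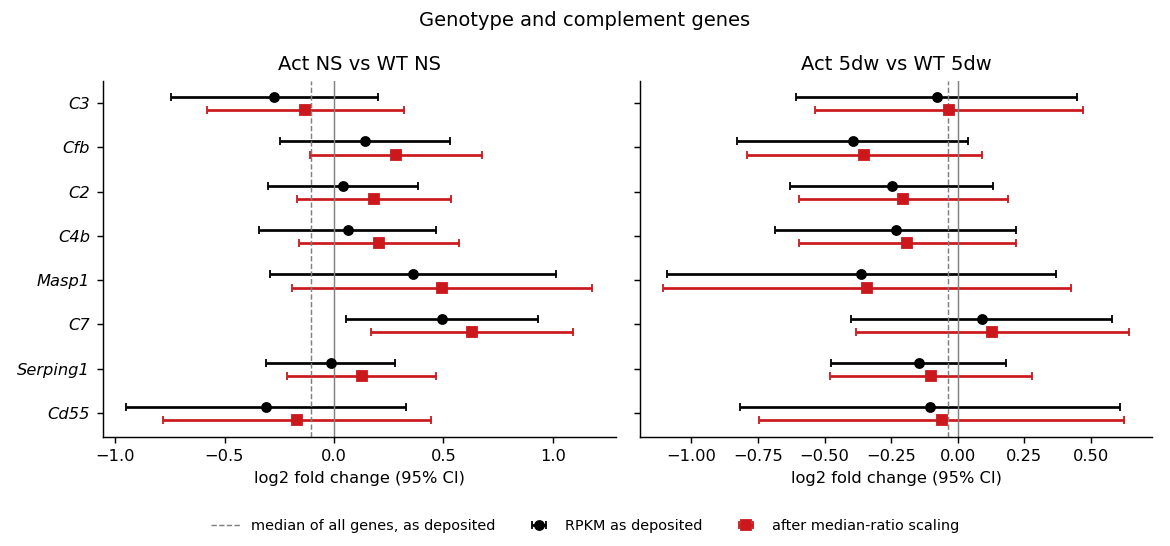
Log2 fold change of the 8 tested members (x axis, with 95% CI from limma) between Act and WT in unwounded skin and in 5-day wounds, as deposited (black circles) and after median-ratio scaling (red squares), with the median of all genes as a dashed line. As deposited, C7 in unwounded skin (0.49, 95% CI 0.05 to 0.93) is the member whose interval leaves out 0, and no member passed the adjusted test.

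Finally, the genes whose log2(RPKM + 0.5) was most like that of C3 over the 11 libraries were Saraf (Pearson r 0.983), Stau1 (0.98), Thbd (0.98), Samd4b (0.977) and Procr (0.967). These libraries share the NS to 5dw difference. Within the 6 NS libraries r was 0.875 to 0.957, and within the 5 libraries of 5dw it was 0.754 to 0.966, highest for Thbd, the gene of thrombomodulin. The genes were picked on these same libraries, so high r within a tissue is partly set by that choice. Each tissue also holds libraries of both genotypes.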

How the data were processed

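The authors sequenced poly-A RNA (TruSeq, Illumina HiSeq), mapped reads to GRCm38 with CLC Genomics Workbench 12 and deposited RPKM per gene symbol. Per the labels, their quality control left out the Act 5dw library numbered 2. Strand and multi-mapping settings were not given in the sources used here. Depth was recovered as the total that makes RPKM times GENCODE M21 exon length a whole number (within 0.03 reads), which held in every library for 75.7% of 25117 detected genes with a single gene model. Among named genes, C6, C7, Cr1l and Masp1 did not come out whole. Colec12 and C3 were kept as whole, although they lay up to 0.43 and 0.04 reads from a whole number, beyond that tolerance. Depth was 18649322 to 39702133 reads.

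Genes with at least 1 RPKM in 2 libraries were fitted with limma 3.58.1 (R 4.3.3, trend) on log2(RPKM + 0.5), which understates changes of low genes. The fit had a mean per group and 7 residual degrees of freedom, with Benjamini-Hochberg adjustment over all 11979 genes and a threshold of 0.05. All 11 libraries entered each comparison. The code was tested on simulated data. P-values measure the spread between pooled libraries.

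Members and lists were chosen with earlier results of these data known. Named were all members, up to 6 complement genes with the highest and 6 with the lowest log2FC among those called in WT wounds, genes sharing sequence with a member, the check genes Inhba and Pdgfra and the 5 genes most correlated with C3. C1ra, C1rb, Colec12, C1q, Mbl1, Hc and single marker genes were added after their values were seen. Some items are not reported here. Of the marker lists, pan-immune genes summed to 10.3 to 17.2 RPKM (2.05 at most without Arhgdib), neutrophil genes to 0.35 to 1.22 in NS and 3.10 to 21.7 in 5dw, T cell genes to 4.16 to 35.7 in NS and 59.1 to 107 in 5dw (3.63 at most without Cd3e), endothelial genes to 21.8 to 39.8, pericyte genes to 12.6 to 24.9, skeletal muscle genes to 4.36 to 7.15 in NS and 2.91 to 3.39 in 5dw, Schwann cell genes to 111 to 157 in NS and 38.2 to 49.2 in 5dw (10.0 at most without Pmp22) and fibroblast genes to 13628 to 19376 in NS and 24370 to 27730.0 in 5dw. The macrophage genes Adgre1 and Csf1r were at 0.12 RPKM at most and at 0.81 to 4.48 RPKM. The part of these lists in the results was not tested. The alternatives were other pseudocounts, filters, scaling and models, and leaving out libraries.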

Additional observations from a re-analysis of the deposited data

How the results depend on the processing

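The members called went from 7 to 4 in WT wounds with limma-voom on recovered reads, and from 8 in Act wounds to 4 with median-ratio scaling, 5 in a fit of the 2 groups alone and 4 with limma-voom. Leaving out each library in turn gave 6 to 8 in WT and 5 to 8 in Act wounds, the 5 being without Act 5dw 1, which leaves 1 library whose spread is taken from the other groups, and 0 in the genotype comparisons and the interaction. Cfb, C7 and Masp1 passed in both wound comparisons under all 20 alternatives run. Serping1 in WT wounds changed sign with limma-voom (log2FC 0.0088, adjusted p = 0.967). In WT wounds all genes split into 2586 higher and 2734 lower with median-ratio scaling and 2642 and 2669 with limma-voom, against 1132 and 5846. In Act wounds the splits were 2320 and 2563, and 2162 and 2091, against 1083 and 4376. With a filter of 5 RPKM, which tests 6596 genes, 3771 were called in WT against 6978 and 3104 in Act against 5459, and without Act 5dw 3 the Act count was 3509. With no filter on low values, 9 genes were called in Act NS against WT NS, 18 in Act 5dw against WT 5dw and 10 for the interaction. The other settings gave 0 to 11 and 0 to 6 genes for the genotype comparisons and 0 to 2 for the interaction. Replicate numbers are shared between groups. Of 15 same-numbered pairs, with r from -0.124 to 0.554, 12 had deviations correlated above 0.1, and 9 of 11 libraries correlated best with their own number. WT NS and Act NS libraries of the same number had r of 0.554, 0.423 and 0.334. The main fit did not use these numbers. With the replicate block the members called were 7 in WT and 8 in Act wounds and 0 elsewhere, and all genes called were 7317 and 5718. The 2 NS libraries numbered 1 stood apart from the other NS libraries, and without both the members called were 7 and 8. Cfd, at 0 to 14 reads per library, was tested only with no filter and passed in no comparison.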
